A study of Arabidopsis thaliana with 6 samples.

Results

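The genes described here make anthocyanin pigments and flavonols in Arabidopsis thaliana. They are 10 loci, set against 13340 loci named on the array in all. They comprise 5 early enzymes (TT4, TT5, F3H, TT7 and FLS1), 4 late enzymes (DFR, LDOX, UF3GT and AT4G14090) and 1 regulator (PAP1). The members were chosen as steps of a known pathway, 8 by probe set and 2 by locus in the array annotation. They were chosen with earlier results of these data known. Whole plants grown on soil, with rinsed roots, gave total RNA for 6 one-colour Affymetrix ATH1 arrays. Of these, 3 arrays carried rli plants, a mutant labelled as having a T-DNA insertion in RLI, and 3 carried wild type (WT). RLI stands for RNase L inhibitor, a protein that binds ATP and helps to recycle ribosomes, and the series title asks about its effect on RNA stability. All rli plants carry the developmental stage label 1.14 and all WT plants the label 3.20, with weeks as the unit. These numbers may be codes of growth stages rather than ages, and no age is read from them. The label follows genotype on every array, so genotype and labelled stage cannot be told apart in any difference below. Both groups share 1 source name, Co-1, and 1 stock code. The labels name no insertion allele and do not say whether plants were pooled. Separate plants for each replicate are not stated either, so the p-values reflect the spread among these samples alone, and that spread may be technical.

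Flavonoid synthesis starts when chalcone synthase joins units of malonyl-CoA to a phenylpropanoid. The early enzymes carry the product to dihydroflavonols, which stand at a branch. Flavonol synthase turns them into colourless flavonols, while dihydroflavonol reductase commits them to anthocyanins, the red and purple pigments of stressed or sugar-rich leaves and stems. In Arabidopsis the late enzymes are known to depend on a complex of a MYB factor such as PAP1, a bHLH factor and TTG1. The early enzymes respond mainly to another subgroup of MYB factors.

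Values are MAS5 probe set intensities as deposited. Differences are rli minus WT on the log2 scale, with the standard error (SE) of a limma fit to 3 arrays per group. Adjusted p-values are those of limma, adjusted by Benjamini-Hochberg across the 13648 probe sets tested, and 0.05 is the threshold. Testing required a mean log2 value of at least 4.63 across arrays, an intensity of 24.7, which 9 of the 10 members reached. Intensities of different probe sets are not on 1 scale, so only differences between arrays are compared between genes. In whole plants, fewer cells of a type and less RNA per cell cannot be told apart.

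Over all probe sets each pair of rli arrays correlated at 0.87. Yet rli replicate 2 correlated more with WT replicate 1 (0.89) and WT replicate 2 (0.88) than with either other rli array. For rli replicates 1 and 3 the correlation with each of these WT arrays was 0.85. WT replicate 3 stood apart, correlating at 0.76 with each of the other WT arrays, which correlated at 0.92 with each other. None of the 3 RLI loci had a named probe set, so the RLI transcript was not analysed here. The mean log2 ratio of the 3' to the 5' ends of 6 control pairs, a reading of RNA integrity, was 2.58 ± 0.16 in rli and 2.45 ± 0.36 in WT (SD, n = 3 each). The pairs cover actin, GAPDH and ubiquitin, each more than once. By array the ratio was 2.65, 2.39 and 2.68 on rli replicates 1 to 3, and 2.11, 2.40 and 2.83 on WT replicates 1 to 3. Every array thus read higher at the 3' ends. The part of RNA integrity in the results was not tested. Among 5 root markers 1 had a named probe set, PYK10, at 1195, 1076 and 1254 in rli against 1137, 1071 and 855 in WT. The 5 flower and 6 seed markers had none and were not analysed here. The part of organ makeup in the results was not tested.

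All 10 members had a higher mean in rli than in WT. Of the 9 tested, 7 rose in rli and 0 fell, where 4.27% of all tested probe sets rose and 2.53% fell, 6.80% in either direction. At an unadjusted p below 0.05 the number that fell was also 0, since every difference was positive. The rli arrays lay wholly above the WT arrays in 8 of the 10 members, against 15.2% of all tested probe sets. The 8 include PAP1, which was not tested and so lies outside the probe sets of that share. The median difference was 1.64 over the 9 tested members and 0.04 over all tested probe sets. Since the members were chosen with earlier results of these data known, these comparisons describe the members and do not test them as a set. With no filter all 10 members were tested and 7 rose, where 2.15% of probe sets did. With the filter at the 60th percentile AT4G14090, which passed the main filter through its rli values, was not tested. There 6 of the 8 tested members rose, where 905 of 9099 tested probe sets changed in either direction. Without rli replicate 2 the members that rose numbered 4, namely TT7, DFR, LDOX and UF3GT, where 2.22% of tested probe sets rose. Without WT replicate 3 they numbered 7, where 8.72% of all tested probe sets rose.

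**Figure D1:**
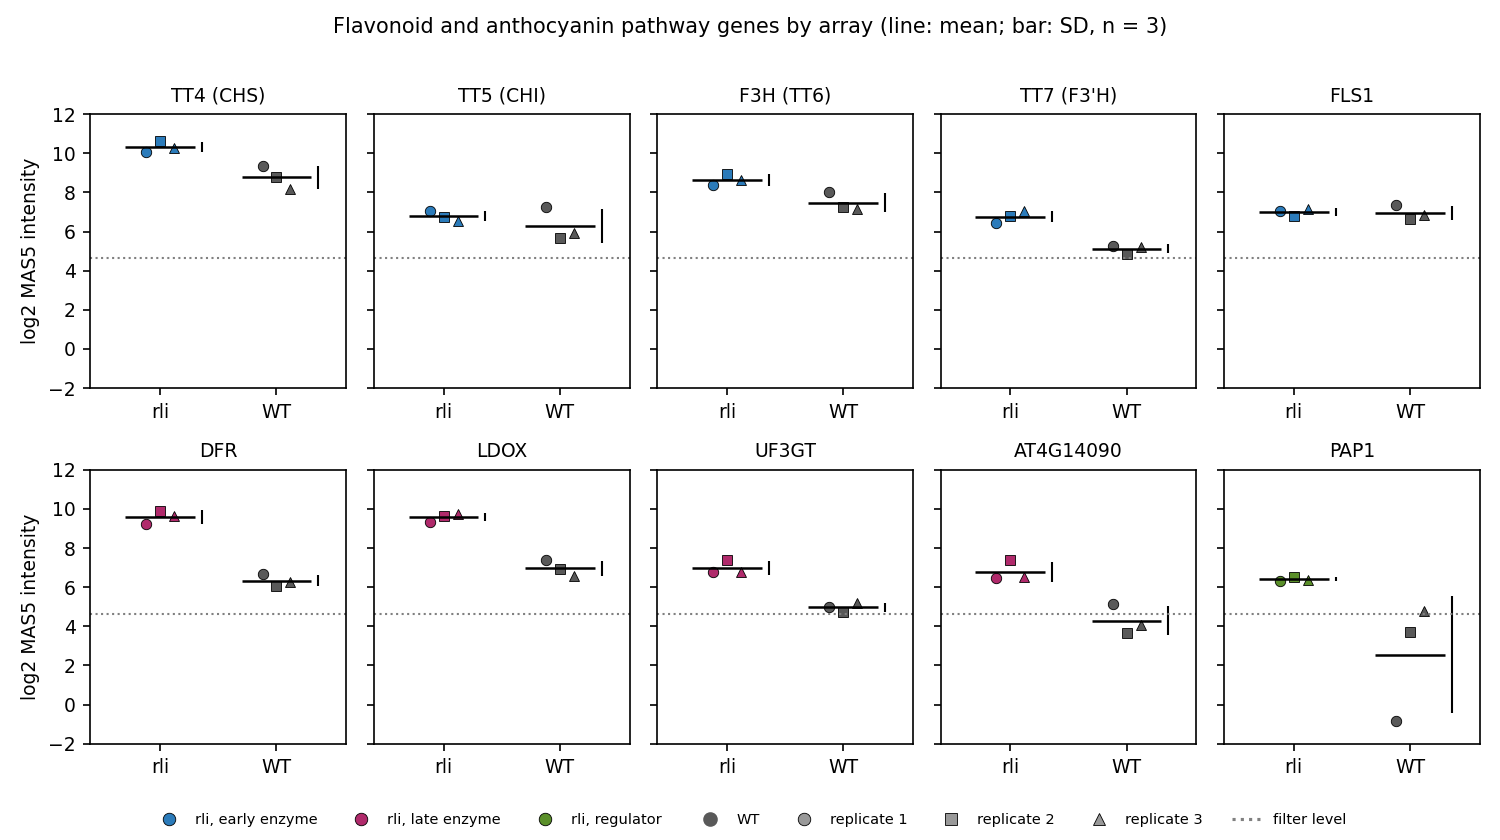
Each panel shows 1 gene, with log2 MAS5 intensity on the vertical axis, the 3 rli arrays on the left and the 3 WT arrays on the right; lines are means, bars are SD and the dotted line is the filter level of 4.63. The rli points lie above every WT point in all panels but those of TT5 and FLS1, and the WT points of PAP1 spread from an intensity of 0.56 to 27.7.

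TT4 (AT5G13930) encodes chalcone synthase, also called CHS, the entry enzyme of the pathway. Its intensity was 1078, 1575 and 1247 on rli replicates 1 to 3, against 658, 439 and 291 on WT replicates 1 to 3. Every rli array was above every WT array, and the lowest rli value was 1.64 times the highest WT value. TT4 rose by 1.55 ± 0.29 (SE, adjusted p = 0.013). The call was lost without rli replicate 2 (adjusted p = 0.068), without rli replicate 3 (0.057) and after median centring (0.13).

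TT5 (AT3G55120) encodes chalcone isomerase, which closes the ring of the chalcone. It read 134, 109 and 93.9 in rli, against 155, 50.9 and 60.1 in WT. The groups overlapped, because WT replicate 1 read higher than any rli array while the other WT arrays read lower than all of them. The difference was 0.51 ± 0.38 (adjusted p = 0.51). Without WT replicate 1 it was 1.01 ± 0.27 (adjusted p = 0.087), while the difference was 0.20 without WT replicate 2, 0.32 without WT replicate 3 and 0.13 with array weights.

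F3H (AT3G51240), or flavanone 3-hydroxylase, makes the dihydroflavonols. It stood at 327, 493 and 392 in rli, against 259.7, 153 and 143 in WT. The groups were separate, though the lowest rli value was only 1.26 times the highest WT value. F3H rose by 1.16 ± 0.27 (adjusted p = 0.032), and its call was lost in 6 of 17 alternatives, among them each array left out except WT replicates 1 and 3. TT7 (AT5G07990) encodes flavonoid 3'-hydroxylase, a cytochrome P450 that adds the hydroxyl group that separates the quercetin and cyanidin types from the kaempferol and pelargonidin types. Its values were 87.1, 112 and 131 in rli, against 39.0, 29.3 and 37.1 in WT. TT7 rose by 1.64 ± 0.25 (adjusted p = 0.0050) and kept its call in all 17 alternatives, with a highest adjusted p of 0.039.

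FLS1 (AT5G08640), the flavonol synthase, draws on the same dihydroflavonols as DFR and leads away from anthocyanins. FLS1 read 134, 110.3 and 143 in rli, against 165, 98.7 and 116 in WT. The 2 groups overlapped, and both the highest and the lowest of the 6 values were WT arrays. The difference was 0.06 ± 0.24 (adjusted p = 0.93), and its sign turned after quantile normalization (-0.0024), after median centring (-0.018) and without WT replicate 2 (-0.11) or rli replicate 3 (-0.022). Among the 5 early enzymes, then, 3 rose and 2 did not pass, with a median difference of 1.16.

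The 4 late enzymes all rose. DFR (AT5G42800), dihydroflavonol reductase, takes the first step committed to anthocyanins and tannins. Its intensity was 605, 968 and 786 in rli, against 102, 67.9 and 76.4 in WT. The lowest rli array read 5.94 times the highest WT array. DFR rose by 3.25 ± 0.24 (adjusted p = 9.3e-05), the 38th highest difference of the 13648 tested.

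LDOX (AT4G22880), also called anthocyanidin synthase, makes the coloured anthocyanidin. It read 648, 788 and 854 in rli, against 167, 120.3 and 96.4 in WT, with no overlap. LDOX rose by 2.61 ± 0.24 (adjusted p = 0.00025). Its probe set is of the type whose probes are shared by more than 1 sequence, so a reading from a related gene cannot be told apart from LDOX itself. In the reference annotation the next gene on 1 side is AT4G22870.

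UF3GT (AT5G54060), a glycosyltransferase also listed as UGT79B1, adds sugar to anthocyanins. It stood at 111, 171 and 111 in rli, against 31.7, 26.4 and 36.4 in WT. The WT arrays lay close above the filter level, while every rli array read at least 3.05 times the highest of them. UF3GT rose by 2.04 ± 0.26 (adjusted p = 0.0021). AT4G14090, an anthocyanin glucosyltransferase, read 90.2, 168 and 90.5 in rli, against 35.3, 12.8 and 16.7 in WT. Its WT mean lay below the filter level, so it passed the filter through its rli values. AT4G14090 rose by 2.50 ± 0.42 (adjusted p = 0.0076), also with no filter (adjusted p = 0.012), and was no longer past the threshold when rli replicate 2 was left out (2.20, adjusted p = 0.058). DFR, LDOX and UF3GT kept their calls in all 17 alternatives, with differences of 3.09 to 3.43, 2.41 to 2.82 and 1.83 to 2.15.

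**Figure D2:**
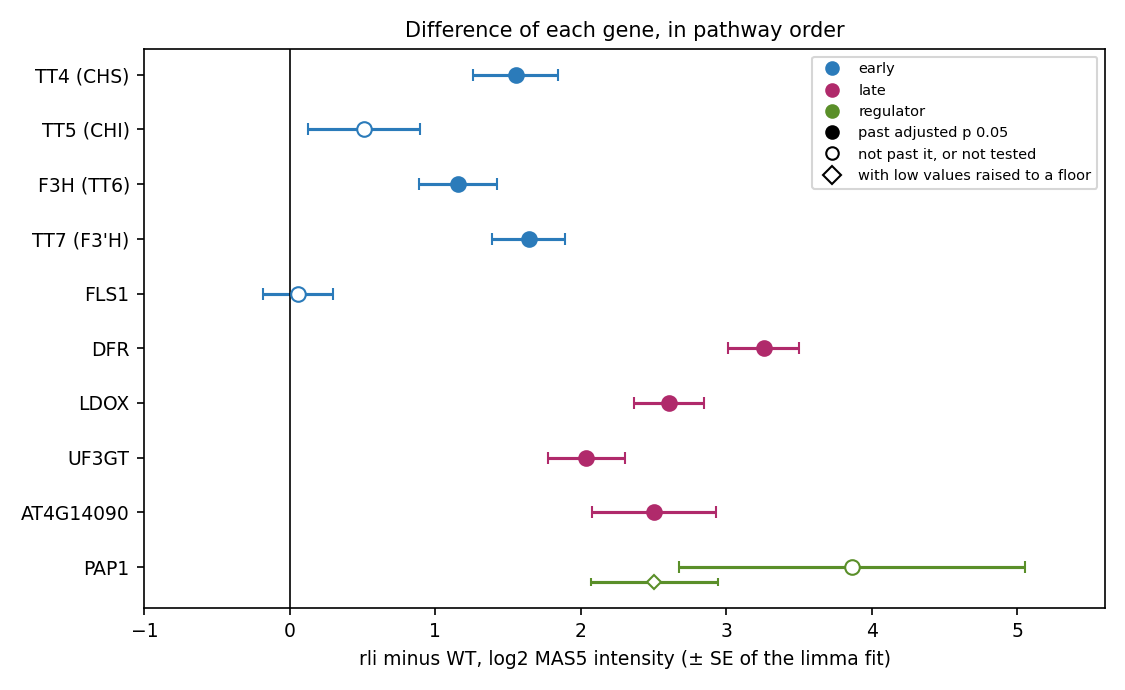
The horizontal axis is the rli minus WT difference in log2 MAS5 intensity with its SE, and the genes run from the entry of the pathway at the top to the regulator at the bottom; filled points passed the adjusted p of 0.05. The late enzymes lie between 2.04 and 3.25 and the early enzymes between 0.06 and 1.64; for PAP1, not tested at the filter used, the circle has the SE of a fit with no filter and the diamond is the value with low intensities raised to a floor.

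PAP1 (AT1G56650), the MYB factor also known as MYB75, activates the late enzymes and its overexpression colours whole plants purple. Its intensity was 80.6, 93.3 and 82.3 in rli, against 0.56, 13.0 and 27.7 in WT. The rli arrays agreed within a factor of 1.16, and the lowest was 2.90 times the highest WT array. The WT arrays spread over a factor of 49.8, with WT replicate 1 alone under 1 and WT replicate 2 also below the filter intensity of 24.7. The mean over all arrays, 4.48 on the log2 scale, fell short of the filter level, so PAP1 was not tested with the other members. The difference was 3.86 as measured, a size that depends on dim WT readings. With no filter its SE was 1.19 and its adjusted p 0.13. With low values raised to a floor of 9.34 the difference was 2.51 ± 0.44 (adjusted p = 0.0081). The floor narrows the spread of the WT arrays and lifts PAP1 past the filter through its rli values, so that p is no independent test. With no filter and without WT replicate 1, a setting chosen after seeing the data, it was 2.16 ± 0.45 (adjusted p = 0.041).

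The late steps were then set against the early steps within each array. For each array, the mean log2 value of the early enzymes was taken from that of the late enzymes, and the WT mean of this quantity was set to 0. It was 1.45, 1.88 and 1.52 on rli replicates 1 to 3, against -0.13, -0.01 and 0.14 on WT replicates 1 to 3. The rli arrays lay apart from the WT arrays, and the difference of 1.62 compares with an SD of 0.23 in rli and 0.14 in WT (n = 3 each). It corresponds to a late to early ratio 3.07 times higher in rli. The late enzymes alone differed by 2.60 and the early enzymes alone by 0.98. In each of the 20 pairs of a late and an early enzyme the late one had the larger difference, with a margin from 0.40 (UF3GT against TT7) to 3.20 (DFR against FLS1). The pairs share their enzymes and are not independent. The margin of 0.40 is small beside the SE of UF3GT (0.26) and of TT7 (0.25), and was not tested. No p-value is given for these scores or for the ratios of single members below, since the members were chosen with earlier results of these data known. Leaving out FLS1, which lies on the flavonol branch, lowered the late minus early difference to 1.39. Ratios within the early class differed too. That of TT7 to FLS1 differed by 1.58, with an SD of 0.34 in rli and 0.22 in WT and no overlap. That of TT4 to TT5 differed by 1.04, and its groups overlapped. A difference close to the 1.62 of late minus early was thus also found between early enzymes.

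**Figure D3:**
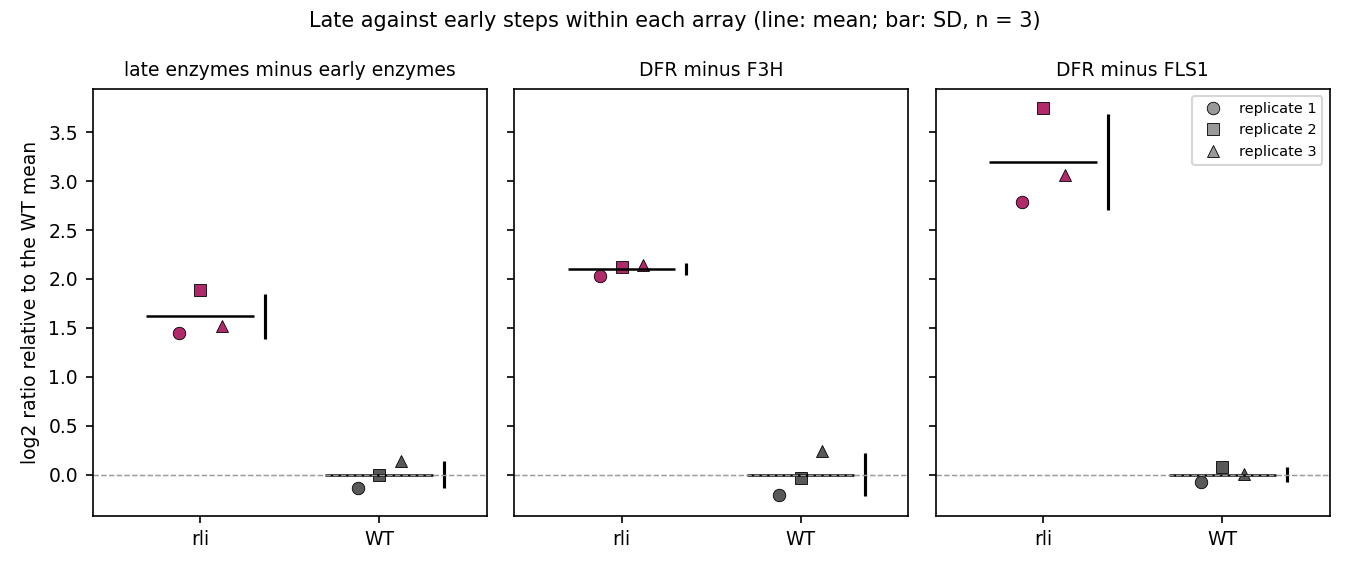
Each panel shows a log2 ratio within each array, relative to its WT mean, with rli on the left and WT on the right; lines are means and bars are SD over 3 arrays. The late minus early ratio is 1.45 to 1.88 on the rli arrays, that of DFR to F3H 2.03 to 2.15 and that of DFR to FLS1 2.78 to 3.74, while no WT array is above 0.24 in any panel.

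At the branch of the pathway, DFR and FLS1 compete for dihydroflavonols made by F3H. The log2 ratio of DFR to FLS1, relative to its WT mean, was 2.78, 3.74 and 3.07 on the rli arrays, against -0.08, 0.07 and 0.01 on the WT arrays. The difference of 3.20, the largest of the 20 pairs above, exceeded the SD of 0.49 in rli and 0.08 in WT. It lies close to the 3.25 of DFR alone, since FLS1 differed by 0.06. The ratio of DFR to F3H, the enzyme before it, was 2.03, 2.12 and 2.15 in rli, against -0.21, -0.03 and 0.24 in WT. Its SD in rli was 0.06, against 0.34 for DFR itself, and in WT 0.22, against 0.30 for DFR. Both genes read highest on rli replicate 2 and lowest on rli replicate 1, as did other members. In WT both read highest on replicate 1, but DFR read lowest on replicate 2 and F3H on replicate 3.

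Within each group the same array often read highest or lowest. WT replicate 1 gave the highest WT reading of all 5 early enzymes and of 3 of the 4 late ones, but the lowest of PAP1. Of the 10 members, 8 read lowest in rli on replicate 1, among them PAP1, and 6 read highest on replicate 2. The spread of a member over the arrays of 1 group ran from 1.16-fold to 1.86-fold in rli. In WT it ran from 1.33-fold to 3.05-fold, apart from the 49.8-fold of PAP1. WT replicate 3, which stood apart over all probe sets, was the highest WT array for UF3GT and PAP1 and the lowest for TT4, F3H and LDOX. Without it TT4 rose by 1.26 ± 0.21, F3H by 1.00 ± 0.24, DFR by 3.21 ± 0.23 and LDOX by 2.42 ± 0.19.

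The members do not form a cluster in the genome. By the reference annotation 5 lie on chromosome 5, 2 on chromosome 3, 2 on chromosome 4 and 1 on chromosome 1. The nearest pair, TT7 and FLS1, has 73 protein-coding genes between its members. Of that pair TT7 rose and FLS1 did not pass.

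Other genes of flavonoid and phenylpropanoid metabolism were taken from lists of 65 loci. A named probe set was found for 12 and 8 were tested. Of the 8, 3 rose and 0 fell, against 4.27% and 2.53% of all tested probe sets. An unadjusted p below 0.05 was found for 5 of the 8, against 21.1% of all tested probe sets, and the median difference was 0.76. In the list of flavonoid enzymes and transporters, 2 of 4 tested loci rose. CHIL (AT5G05270), a chalcone isomerase-like protein that assists the early enzymes, read 146, 192 and 144 in rli, against 63.6, 51.1 and 75.6 in WT. The groups were separate, and CHIL rose by 1.35 ± 0.23 (adjusted p = 0.0078), losing the call only after median centring (0.052) among 17 alternatives. UGT78D2 (AT5G17050), which puts glucose on the 3 position of both flavonols and anthocyanidins, read 153, 185 and 171 in rli, against 84.1, 93.5 and 80.1 in WT. UGT78D2 rose by 0.98 ± 0.19 (adjusted p = 0.016). Its call was lost after median centring and without WT replicate 1 or any 1 rli array (highest adjusted p = 0.20).

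The rhamnosyltransferases of the flavonol branch, UGT89C1 and UGT78D1, did not pass the adjusted threshold. Each had all rli arrays above all WT arrays, as did 15.2% of all tested probe sets. The unadjusted limma p was 0.012 for UGT89C1 and 0.030 for UGT78D1. UGT89C1 (AT1G06000) stood at 164, 128 and 122 in rli, against 118, 51.7 and 45.8 in WT. Its groups were separate by a small margin, with a difference of 1.06 ± 0.34 (adjusted p = 0.10). It passed without WT replicate 1 and with the replicate number as a block (lowest adjusted p = 0.016). UGT78D1 (AT1G30530) read 161, 174 and 164 in rli, against 147, 106 and 90.0 in WT, a difference of 0.57 ± 0.22 (adjusted p = 0.18). The gene 5MAT (AT3G29590), which adds malonyl groups to anthocyanins, was too dim to be tested, at 39.0, 28.8 and 36.9 in rli against 15.0, 10.5 and 7.35 in WT. Its groups did not overlap, and the measured difference was 1.72 (adjusted p = 0.22 with no filter). UGT78D3, which attaches arabinose to flavonols, read under 3 on every array.

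**Figure D4:**
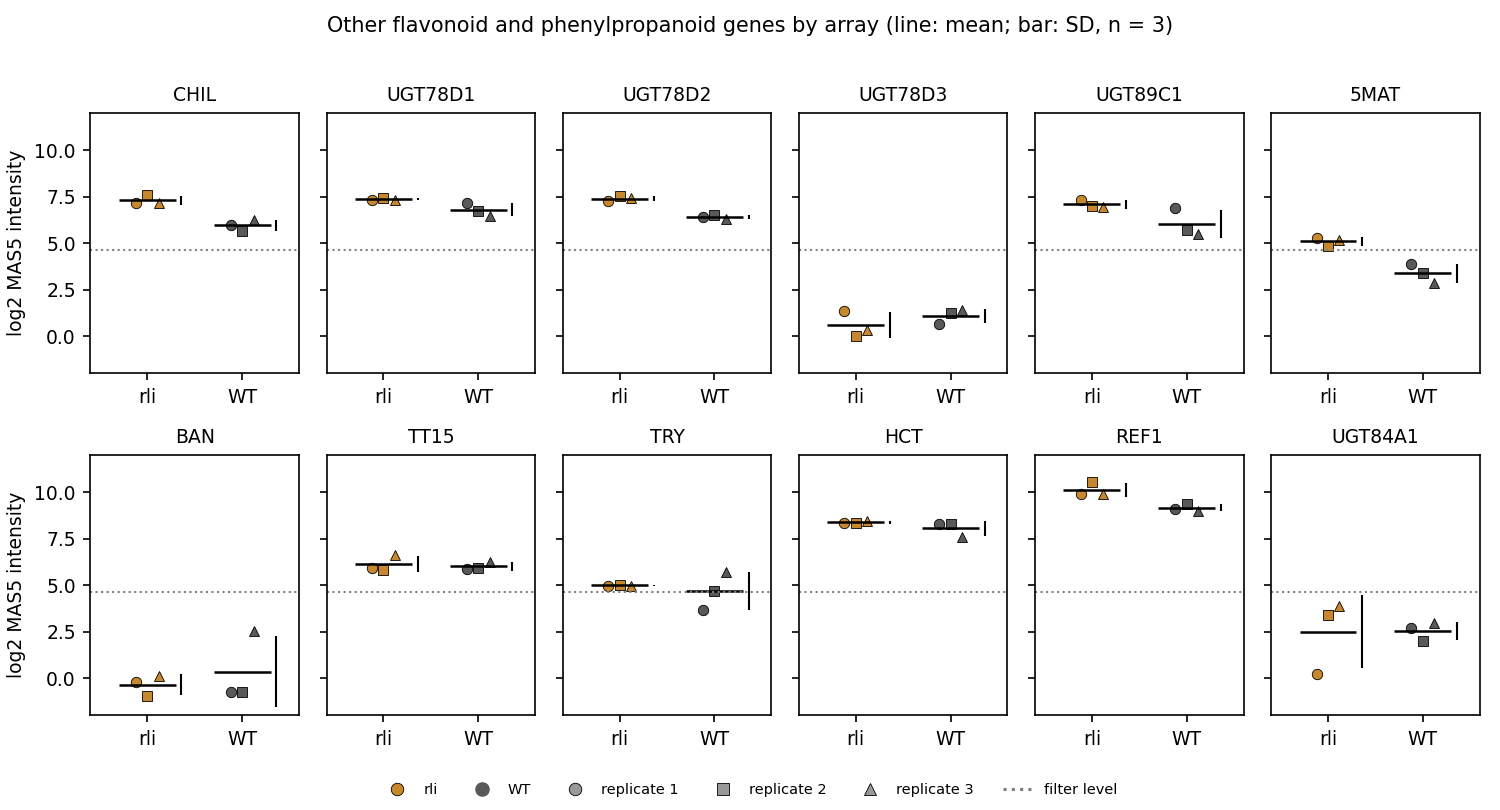
Panels show log2 MAS5 intensity of 12 other named genes of flavonoid and phenylpropanoid metabolism, with rli on the left and WT on the right; lines are means, bars are SD over 3 arrays and the dotted line is the filter level. CHIL, UGT78D2 and REF1 rose, and the rli points of 5MAT, which was not tested, lie above all its WT points.

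In the lignin and sinapate list 1 of 2 tested loci rose. REF1 (AT3G24503), an aldehyde dehydrogenase that makes ferulate and sinapate, read 945, 1497 and 960.0 in rli, against 557, 670.4 and 511 in WT. REF1 rose by 0.94 ± 0.23 (adjusted p = 0.042) and lost the call in 7 of 17 alternatives (highest adjusted p = 0.32). HCT, which leads to lignin, stood at 0.32 ± 0.23 (adjusted p = 0.49). The seed coat genes gave 1 tested locus, TT15, a sterol glucosyltransferase, at 0.12 ± 0.27 (adjusted p = 0.85). BAN, the anthocyanidin reductase of seed coat tannins, read 0.87, 0.50 and 1.09 in rli against 0.59, 0.59 and 5.80 in WT, below the filter level on all arrays. UGT84A1, a glucosyltransferase of the sinapate branch, was also too dim to be tested, at 1.17, 10.6 and 14.6 in rli against 6.49, 4.02 and 7.75 in WT. TRY, a small MYB repressor, was the 1 tested regulator from the lists, at 0.31 ± 0.54 (adjusted p = 0.81), with WT values from 12.5 to 51.9. The lists of the 8 general phenylpropanoid loci and of 12 further activators had no named probe set and were not analysed here.

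Genes with the pattern most like that of DFR were looked for among 7318 other tested probe sets with 1 named gene. Likeness was the root mean square distance between row-centred log2 values over the 6 arrays, a description that mixes the difference between groups with the spread within them. The nearest 5 were COR15A (AT2G42540), a cold-regulated gene, at a distance of 0.19, then AT3G10930 (0.27), AT1G80130 (0.30), AT4G27652 (0.30) and AT1G74450 (0.35). COR15A read 428, 566 and 446 in rli, against 66.3, 54.0 and 42.4 in WT. Among the members LDOX was nearest to DFR, at 0.38, followed by AT4G14090 at 0.49 and UF3GT at 0.65. Set among the 7318, these members would rank 7, 16 and 38, so other genes lay nearer to DFR than each of them. TT4 had as its nearest AT1G04770, AT3G25410, AT3G56880, AT5G45500 and AT3G25610, at distances of 0.20 to 0.21. F3H stood at 0.25 from TT4, nearer than all but 10 of the 7318, then TT7 at 0.38 (rank 90), while DFR stood at 0.89. Distance from TT4 did not follow the early and late classes. The late UF3GT (0.49), LDOX (0.56) and AT4G14090 (0.59) were nearer to it than the early TT5 (0.66) and FLS1 (0.83).

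**Figure D5:**
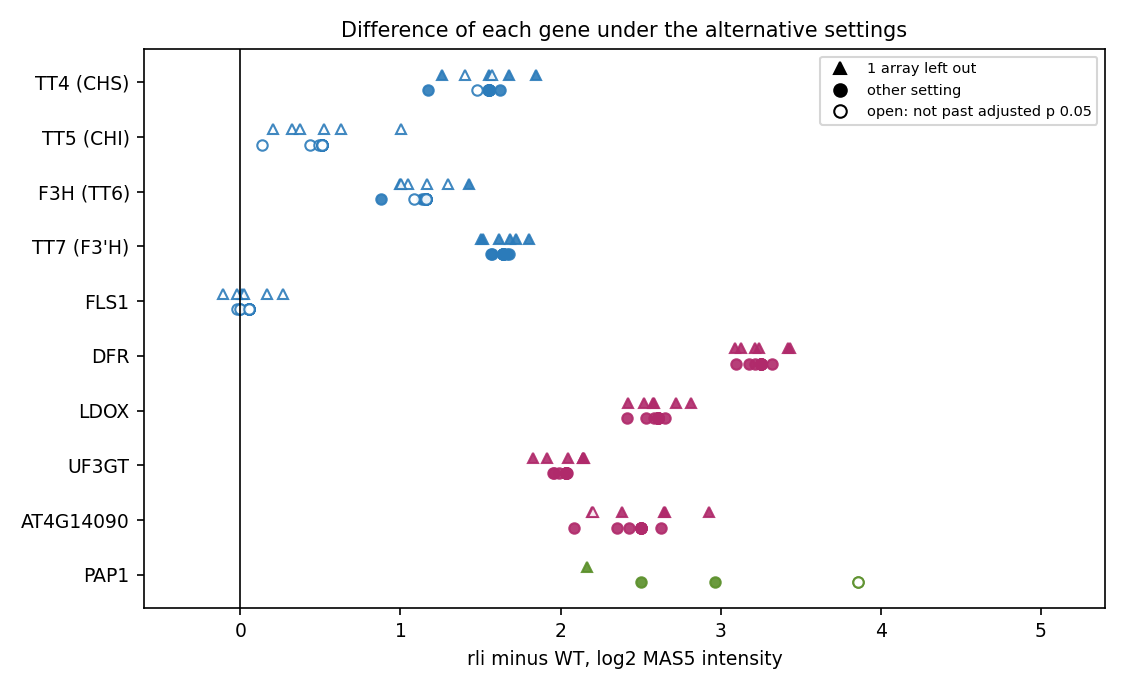
The horizontal axis is the rli minus WT difference in log2 MAS5 intensity, with 1 point for each alternative setting in which the gene was tested; triangles leave out 1 array, circles are other settings and open symbols did not pass the adjusted p of 0.05. The points of DFR, LDOX, UF3GT and TT7 are all filled, those of FLS1 lie on both sides of 0 and those of TT5 run from 0.13 to 1.01.

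DFR, LDOX, UF3GT and TT7 passed in every alternative, AT4G14090 in 15 of 16, TT4 in 14 and F3H in 11 of 17. TT5 and FLS1 passed in 0 of 17, which does not show that they are the same in rli and WT.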

How the data were processed

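The deposited values are linear MAS5 probe set intensities, for which the submitters' processing notes name MAS5 and GCOS. Their versions are not given in the sources used here. Trimmed of 2% of probe sets at either end, the mean was 100.01 on every array, so the intensities were moved to log2 without further scaling. Array medians ran from 38.2 to 46.3 in rli and from 35.8 to 53.0 in WT. No detection calls were used, and the number of arrays limits precision.

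The platform gene table listed 14016 of 22810 probe sets, 13513 of them with 1 gene, 503 with several, and 8794 not at all. It named 3 members. The other 7 were named by the probe set IDs that define them. Symbols came from the reference gene table (assembly TAIR10.1), used for names, chromosomes and gene order only.

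The 64 control probe sets and those below the 40th percentile of mean log2 value were left out. Groups came from the sample titles, and the fit used genotype alone (R 4.3.3, limma 3.58.1, eBayes with an intensity trend). The code was tested on simulated data. Named genes were all members, list genes that passed or else had the smallest p, and the 5 nearest to DFR and to TT4. The choice of UGT89C1, UGT78D1, 5MAT, UGT78D3, BAN, HCT and UGT84A1 came after seeing their values. The members and lists were chosen with earlier results of these data known. Alternatives covered normalization, filter, low values, variance model, array weights, a replicate block, naming and arrays left out. Plots used Python 3.11.15 and matplotlib 3.10.9.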

Additional observations from a re-analysis of the deposited data

How the results depend on the processing

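The members that rose, 7 in the main fit, numbered 4 to 7 with each array left out, with 4 without rli replicate 2. Under the other settings they numbered 5 to 8. The count of 8 came with the 10th percentile of values added and with the floor. It includes PAP1, which passed the filter there through its rli values. Members that rose numbered 3 when only probe sets named in the platform gene table were used, which leaves 3 members to test. Members that fell numbered 0 in every setting. The late minus early difference of 1.62 was 1.48 to 1.70 with each array left out and 1.39 without FLS1, which follows from dropping the early enzyme with the smallest difference. The FLS1 difference was -0.0024 after quantile normalization and -0.018 after median centring, and ran from -0.11 to 0.26 with each array left out, below 0 without WT replicate 2 or rli replicate 3. PAP1 was tested in 5 settings and passed in 3, each of which narrows the spread of its WT values. Over all probe sets 928 changed, against 332 with median centring, 593 where the variance had no intensity trend and 3181 under array weights. Leaving out rli replicate 1, 2 or 3 gave 403, 498 or 389, and leaving out WT replicate 1, 2 or 3 gave 497, 555 or 2085. Of the 3 list genes that rose, 0 passed after median centring and 1 to 3 with each array left out, 1 of them without any 1 rli array. The cause was not tested. With the replicate number as a block 7 members rose, 1300 probe sets changed and 4 list genes passed. Deviations of same-numbered arrays correlated at -0.09, 0.33 and 0.32, and those of differently numbered arrays at -0.36 to 0.27. For rli replicates 2 and 3 the WT array of the same number gave the highest value, for rli replicate 1 it did not. These values do not settle whether the numbers pair the samples, and the main fit did not pair them. Without detection calls, dim WT readings of PAP1 and AT4G14090 limit the size of their differences.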
